A study of Drosophila melanogaster with 8 samples.

Results

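The genes described here make fatty acids and handle the droplets that store them: FASN1, FASN2, ACC, Desat1, SREBP, mdy, Lsd-1, Lsd-2, bmm and Akh. They were chosen by symbol, among spots that the probe table pairs with exactly 1 gene. All 10 were measured, on 14 of the 12246 such spots, out of 10609 genes in all. FASN1, FASN2, Desat1, SREBP, Lsd-2, bmm and Akh had 1 spot each, ACC and mdy had 2, and Lsd-1 had 3.

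Larval and adult RNA of Drosophila melanogaster, from the wild-type strain Canton S, were hybridised together on 8 spotted 2-colour arrays of 20000 spots. Both were stage mixes, and the labels name no dissected tissue, age, sex or treatment. The labels say that the RNA of every array was drawn from a common TRIzol homogenate and worked up separately, in order to assess technical error. The 8 arrays are therefore technical replicates, and a p-value measures the spread between arrays, not between animals. Larvae were in channel 1 on replicates 1, 3, 6 and 8 and adults on replicates 2, 4, 5 and 7.

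Each value is a log2 ratio of the 2 channels, centred on the array's median over gene spots, with its sign reversed where adults were in channel 1. It is called the turned ratio here. The labels do not say which channel was divided by which: with channel 1 on top a positive value stands for larvae, with channel 2 on top for adults. So values are given by side. Sizes and order of the ratios do not depend on this. In such bulk RNA, fewer cells of a type and less RNA per cell cannot be told apart.

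Fatty acid synthesis starts with acetyl-CoA carboxylase, which makes malonyl-CoA, the building block that fatty acid synthase joins into long saturated chains. A desaturase then adds a double bond, and acyltransferases join fatty acids to glycerol to give triacylglycerol, the storage fat. In flies most of this takes place in the fat body, and FASN1 serves it there. The fat is kept in lipid droplets, coated by perilipins and broken down by lipases when energy is needed. Adipokinetic hormone, released from the corpora cardiaca, sets this breakdown going.

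Replicate 7 stood apart from the other arrays. Its median correlation with them over gene spots was 0.68, against 0.76 to 0.85 for the others (Pearson's r of turned ratios, across spots that are not independent replicates). It also had the widest spread of ratios, with an SD of 0.96 over gene spots against 0.57 to 0.87. The 2 most alike arrays, replicates 4 and 5, correlated at 0.94. Some of the results below are given without replicate 7 too.

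The first comparison asked which of these genes differed between the stages. The synthetic and storage enzyme genes FASN1, Desat1, ACC and mdy, were on the negative side, and both perilipin genes, Lsd-1 and Lsd-2, were on the positive side. FASN2, SREBP, bmm and Akh did not pass the threshold. So 6 of the 10 genes passed a limma adjusted p of 0.05 over all genes, 4 negative and 2 positive. Among all 10609 genes 57.1% passed, 27.9% with a negative and 29.2% with a positive ratio, so the share of these genes that passed lay near the background. Their sizes were spread widely: only 1.21% of all genes had a larger absolute ratio than FASN1, against 92.2% for bmm and 92.8% for Akh. Of the 10 genes, 5 had one sign on all 8 arrays (FASN1, Desat1, mdy, Lsd-1 and Lsd-2), while 41.7% of all genes did.

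**Figure D1:**
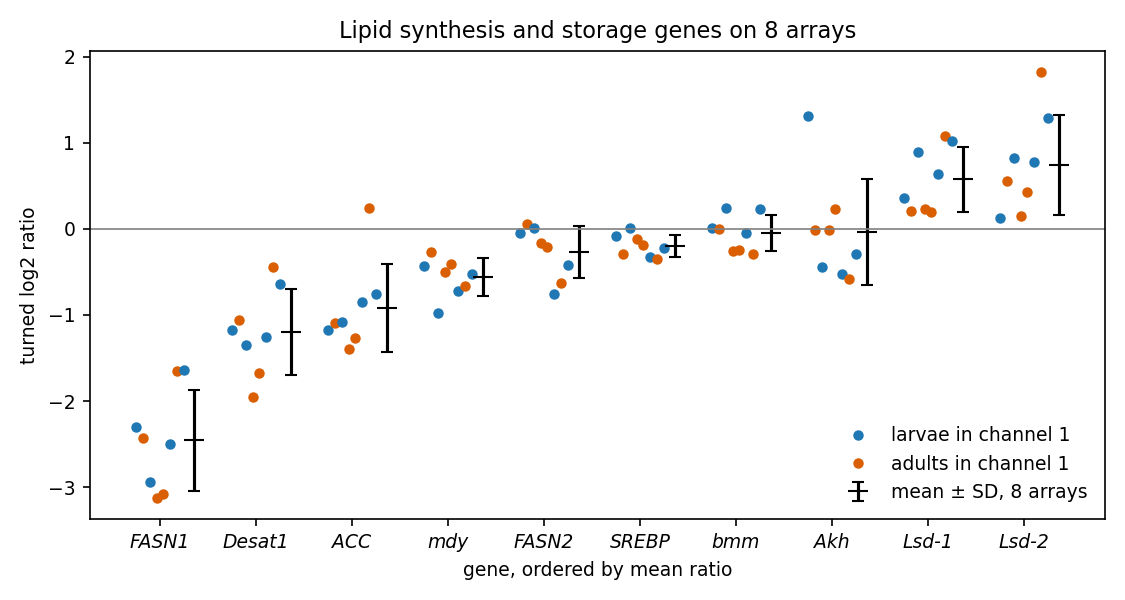
Turned log2 ratio (no unit) of each gene on each of the 8 arrays, in order of replicate number within a gene, coloured by which stage was in channel 1, with the mean ± SD over 8 arrays beside the points. FASN1 lies below every other gene, from -3.12 to -1.64, and the points of Lsd-1 and Lsd-2 all lie above 0.

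FASN1 encodes the fatty acid synthase of fat body lipogenesis. Its turned ratios on replicates 1 to 8 were -2.30, -2.43, -2.94, -3.12, -3.08, -2.50, -1.65 and -1.64. All 8 arrays were on the negative side, with replicates 7 and 8 nearest to 0 and replicates 4 and 5 farthest from it. The mean was -2.46 ± 0.59 (SD, n = 8), a 5.49-fold difference, with a limma adjusted p of 8.66e-07 and a 95% interval of -2.84 to -2.07. Without replicate 7 the limma estimate, which weighs both orientations equally, was -2.61. Only 0.566% of all genes had a lower mean ratio.

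FASN2 encodes a second fatty acid synthase. On replicates 1 to 8 it stood at -0.05, 0.05, 0.01, -0.16, -0.21, -0.76, -0.62 and -0.43. Replicates 1, 2 and 3 lay close to 0, and the other arrays were on the negative side. Its mean of -0.27 ± 0.30 (SD, n = 8) missed the threshold narrowly, at a limma adjusted p of 0.0511. The gene passed when replicate 1, 2 or 3 was left out (0.0432, 0.0432 and 0.0374) and did not pass without any of the others (0.0752 to 0.152). It also passed with arrays centred on all spots (-0.41, adjusted p = 0.0294) and as deposited (-0.71, adjusted p = 0.00309). Further settings it passed were arrays scaled to one spread, quantile normalization, no dye column, array weights and a loess curve against brightness removed. Ratios there were -0.31 to -0.23, with limma adjusted p values of 0.00312 to 0.0421.

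The 2 synthases were compared within each array. FASN1 lay below FASN2 on 8 of 8 arrays, with differences from -2.96 to -1.03. The mean difference was -2.18 ± 0.78 (SD, n = 8), which is 4.55-fold, in an exact two-sided sign-flip permutation test with p = 0.00781, the smallest that 8 arrays allow. Adjusted over the 5 pairs of genes compared here it was 0.00977. This is a difference between ratios, not between levels of RNA. The sources used here do not say whether the spots distinguish these related genes.

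ACC encodes acetyl-CoA carboxylase, the committed step before the synthase. The mean of its 2 spots on replicates 1 to 8 was -1.17, -1.10, -1.08, -1.40, -1.26, -0.85, 0.24 and -0.75. On 7 arrays the ratio was negative and on replicate 7 it was positive. The mean over arrays was -0.92 ± 0.51 (SD, n = 8), with a limma adjusted p of 0.000594. Without replicate 7 the limma estimate was -1.11 and the adjusted p was 8.38e-07. FASN1 lay below ACC on 8 of 8 arrays, with a mean difference of -1.54 ± 0.38 (SD, n = 8) and the same exact permutation p (0.00781, and 0.00977 over the 5 pairs).

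Desat1, the acyl-CoA desaturase that turns saturated into monounsaturated fatty acids, stood at -1.18, -1.06, -1.35, -1.96, -1.67, -1.26, -0.45 and -0.64 on replicates 1 to 8. All arrays were negative, and again replicates 4 and 5 lay farthest from 0 and replicates 7 and 8 nearest to it. The mean was -1.20 ± 0.50 (SD, n = 8), a 2.29-fold difference, with a limma adjusted p of 6.88e-05. Apart from FASN1, it was the one gene of the 10 that passed the threshold with a difference of at least 2-fold, as 9.36% of all genes did.

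FASN1 and Desat1 kept nearly the same distance from array to array. The difference ran from -1.59 to -0.995, with a mean of -1.26 ± 0.19 (SD, n = 8), negative on 8 of 8 arrays. The exact permutation p was 0.00781, and 0.00977 over the 5 pairs. The SD of that difference, 0.19, was smaller than the SD of either gene alone, 0.59 and 0.50. The SD of the difference was also smaller than that of either gene for FASN1 and ACC (0.38) and for Lsd-1 and Lsd-2 (0.31). For FASN1 and FASN2 it was 0.78, and for mdy and bmm 0.35, larger than that of either gene. All arrays came from a common homogenate, so shifts shared between genes include the technical pattern of the arrays.

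**Figure D2:**
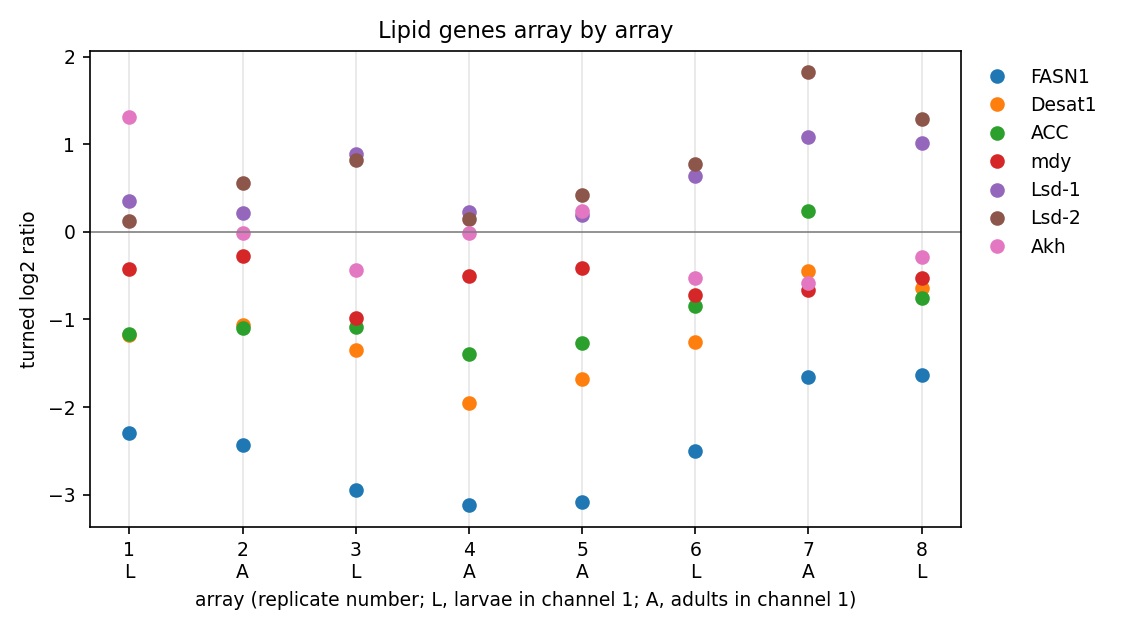
Turned log2 ratio (no unit) of 7 of the genes on each array, by replicate number and by the stage in channel 1. FASN1 and Desat1 shift together, lowest on replicates 4 and 5 and nearest to 0 on replicates 7 and 8, where Lsd-1 and Lsd-2 are highest, and Akh is high on replicate 1.

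SREBP encodes the membrane-bound transcription factor that is cleaved to switch on fatty acid synthesis genes. It stood at -0.08, -0.30, 0.01, -0.12, -0.18, -0.32, -0.35 and -0.22 on replicates 1 to 8. The ratios were small and 7 of 8 were negative. Its mean was -0.20 ± 0.13 (SD, n = 8), at a limma adjusted p of 0.0503. It passed without replicate 3 (0.0396) and did not pass without any other array (0.0620 to 0.129). It also passed with arrays centred on all spots (-0.33, adjusted p = 0.0372) and as deposited (-0.63, adjusted p = 0.00281). At -0.20 to -0.19 it passed with arrays scaled to one spread (0.0178) and under quantile normalization (0.0290). The same held with array weights (0.00843) and with a loess curve against brightness removed (0.0240). The SREBP spot was among the most repeatable: only 3.83% of genes had a smaller residual SD than its 0.13.

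The gene mdy encodes a diacylglycerol acyltransferase, the enzyme of the last step to triacylglycerol. Its mean over 2 spots was -0.43, -0.27, -0.98, -0.50, -0.41, -0.72, -0.66 and -0.53 on replicates 1 to 8. Every array was negative, with replicate 3 the lowest. The mean was -0.56 ± 0.22 (SD, n = 8), a 1.48-fold difference, with a limma adjusted p of 0.000326.

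The droplet coat genes were on the other side. Lsd-1 encodes perilipin 1, through which lipases gain access to the droplet. Its mean over 3 spots was 0.35, 0.21, 0.89, 0.23, 0.19, 0.64, 1.08 and 1.02 on replicates 1 to 8. Every array was positive, with replicates 3, 7 and 8 well above replicates 2, 4 and 5. The mean was 0.58 ± 0.38 (SD, n = 8), with a limma adjusted p of 0.00188. Without replicate 7 the limma estimate was 0.47, with an adjusted p of 0.00103.

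Lsd-2 encodes perilipin 2, which shields droplets from lipases. It stood at 0.12, 0.56, 0.82, 0.15, 0.42, 0.77, 1.82 and 1.28 on replicates 1 to 8. All arrays were positive and replicate 7 was the highest. The mean was 0.74 ± 0.58 (SD, n = 8), a 1.67-fold difference, with a limma adjusted p of 0.00414. Without replicate 7 the limma estimate was 0.56, with an adjusted p of 0.00219.

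Whether the perilipin genes passed depended on the centring of the arrays. As deposited, where the median of all genes lay at -0.45, Lsd-1 was at 0.14 (adjusted p = 0.353) and Lsd-2 at 0.31 (adjusted p = 0.0650), both still positive and neither past the threshold. With arrays centred on all spots, where that median was -0.15, both passed, at 0.44 and 0.61. Their distance above the other genes does not depend on centring. Lsd-1 minus Lsd-2 was -0.17 ± 0.31 (SD, n = 8), below 0 on 5 of 8 arrays, within the spread between arrays. The exact permutation p was 0.172, also after adjustment over the 5 pairs.

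The lipase bmm, brummer, is the fly counterpart of the adipose triglyceride lipase and works at the droplet surface. It stood at 0.01, 0.0030, 0.24, -0.26, -0.24, -0.05, -0.29 and 0.23 on replicates 1 to 8. Of the arrays, 4 were negative and 4 positive. The mean was -0.04 ± 0.21 (SD, n = 8), with a limma adjusted p of 0.659 and a 95% interval of -0.22 to 0.13. As deposited it was at -0.48 and passed (adjusted p = 0.00937).

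The acyltransferase mdy lay below the lipase bmm on 8 of 8 arrays, with differences from -1.22 to -0.17. The mean difference was -0.52 ± 0.35 (SD, n = 8), with an exact permutation p of 0.00781, and 0.00977 over the 5 pairs. Since both ratios move alike with centring, this difference was the same as deposited.

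Akh encodes adipokinetic hormone, the peptide that mobilises stored fat. It stood at 1.31, -0.01, -0.44, -0.01, 0.23, -0.53, -0.59 and -0.29 on replicates 1 to 8. Replicate 1 lay far above the rest, and 6 of 8 arrays were negative. The mean was -0.04 ± 0.61 (SD, n = 8), with a limma adjusted p of 0.868 and a 95% interval of -0.44 to 0.36. Without replicate 1 the limma estimate was -0.26 and still did not pass (adjusted p = 0.0693). Over all 8 arrays, 95.2% of genes had a smaller residual SD than its 0.66, a rank not computed without replicate 1. The plain SD of Akh was 0.61 over 8 arrays. Without replicate 1 it was 0.31 over the other 7, an alternative added after seeing the data.

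In order of mean ratio the genes ran FASN1, Desat1, ACC, mdy, FASN2, SREBP, bmm, Akh, Lsd-1 and Lsd-2. The step from FASN1 to Desat1, 1.26 ± 0.19 (SD, n = 8), was larger than the spread of that difference between arrays. The other 8 steps between neighbours were not. Desat1 and ACC differed by 0.28 ± 0.29 and Akh and Lsd-1 by 0.62 ± 0.89.

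**Figure D3:**
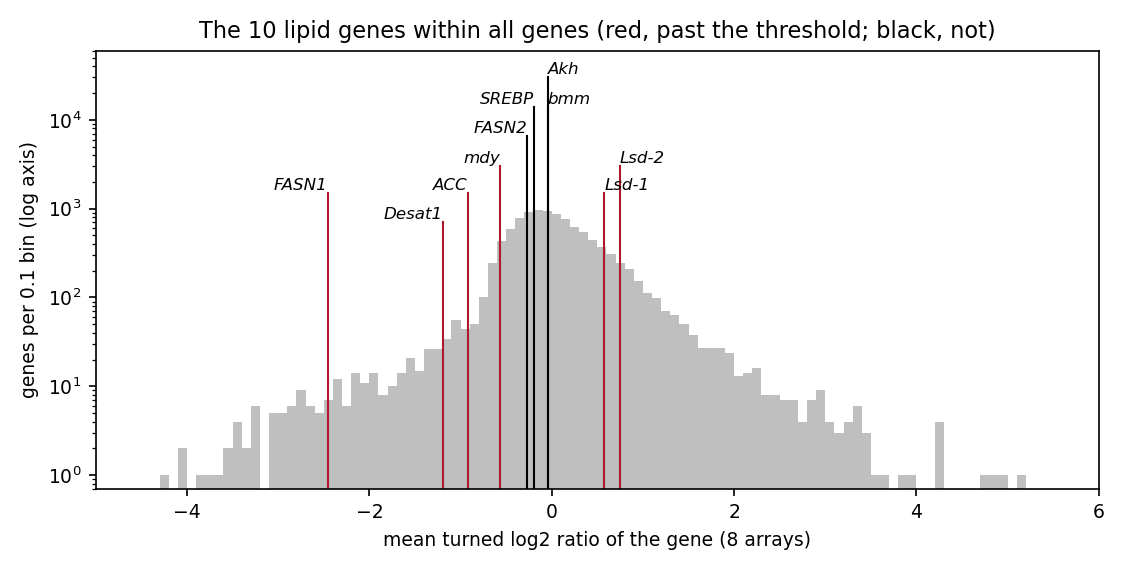
Number of genes (log axis) per 0.1 bin of the mean turned log2 ratio (no unit, 8 arrays) for all 10609 genes, with a line at each of the 10 lipid genes, red where it passed the threshold and black where it did not. FASN1 lies in the lower tail at -2.46, and bmm, Akh, SREBP and FASN2 lie in the bulk of genes.

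Genes with several spots allow a check within an array. For mdy both spots gave the same result, -0.54 ± 0.18 and -0.58 ± 0.27 (SD, n = 8), negative on every array. They differed by 0.04 ± 0.12, and 9.32% of the 1255 genes with several spots had a smaller spread between spot means.

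The 2 ACC spots differed more, at -0.68 ± 0.36 and -1.16 ± 0.78 (SD, n = 8). The first was -0.79, -0.51, -1.13, -0.85, -0.66, -0.71, 0.09 and -0.89 on replicates 1 to 8. The second was -1.54, -1.68, -1.04, -1.94, -1.86, -0.98, 0.38 and -0.61. On replicate 7 both were on the positive side, and on the other arrays both were negative. They differed by 0.48 ± 0.65, less than the spread of that difference between arrays. Both passed in the fit of gene spots, at limma adjusted p values of 0.000306 and 0.00108, where 56.4% of the 12246 spots passed.

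The 3 Lsd-1 spots had means of 0.78 ± 0.40, 0.68 ± 0.59 and 0.27 ± 0.35 (SD, n = 8). Spots 1 and 2 were positive on all 8 arrays and spot 3 on 6. Spot 3 was below spot 1 on every array, by 0.51 ± 0.40, and on replicate 7 it stood at 0.10 while the others were at 1.34 and 1.80. It was also a dim spot. Brightness was read as the mean log2 of the whole numbers behind each ratio, a lower bound, and 13.8% of gene spots were dimmer than this one, against 74.8% and 86.8% for the others. All 3 passed in the spot fit (limma adjusted p of 0.000375, 0.00655 and 0.0339).

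**Figure D4:**
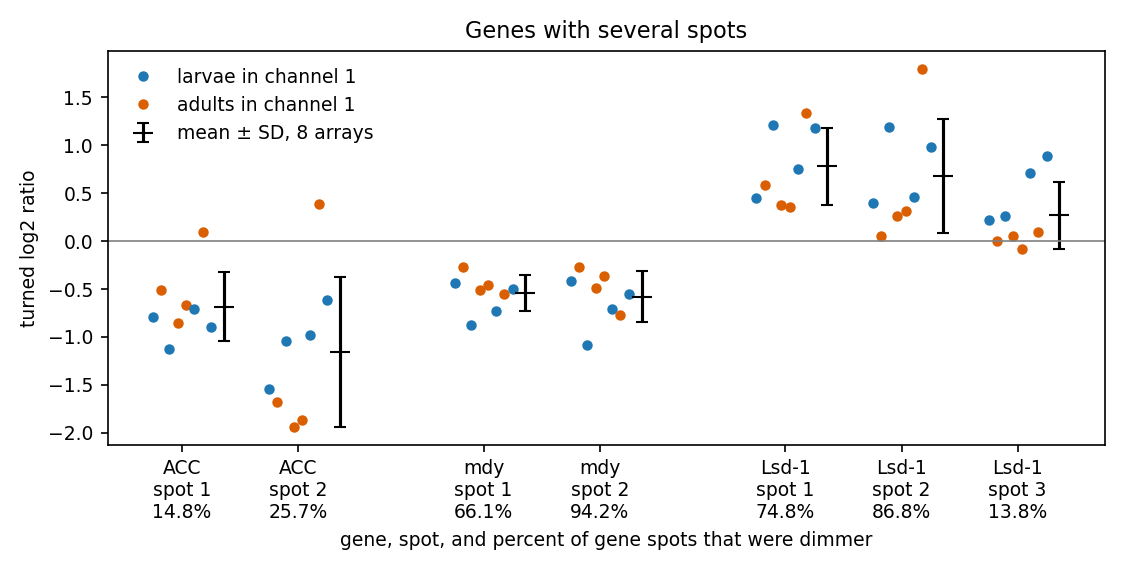
Turned log2 ratio (no unit) on each of the 8 arrays for every spot of ACC, mdy and Lsd-1, with mean ± SD over arrays, and the percent of gene spots that were dimmer under each name. Both mdy spots coincide, and spot 3 of Lsd-1, dimmer than the others, has the lowest mean of that gene, 0.27.

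If the spot of smallest residual SD is taken for each gene in place of the mean of spots, Lsd-1 rests on its dim spot 3. Lsd-1 then stood at 0.27 and ACC at -0.68, both past the threshold (adjusted p = 0.0310 and 0.000285). Lsd-1 minus Lsd-2 became -0.48, with an exact permutation p of 0.0234 over the 5 pairs. The 2 perilipin genes therefore differed in ratio with one choice of spot and not with the mean of spots. The FASN1, Desat1, bmm and Akh spots had brightness above 94.0%, 91.2%, 27.9% and 84.1% of gene spots. The ACC spots lay above 14.8% and 25.7%, the mdy spots above 66.1% and 94.2%, and the Lsd-2 spot above 31.98%. So FASN1 minus ACC and mdy minus bmm set brighter spots against dimmer ones. With a loess curve against brightness removed, these differences were -1.73 and -0.61. The part of brightness in their size was not tested.

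A second comparison asked whether the channel that held a stage changed the ratio. Means over the 4 arrays with larvae in channel 1 and the 4 with adults there were -2.34 ± 0.54 and -2.57 ± 0.69 for FASN1 (SD, n = 4 each). They were -1.11 ± 0.32 and -1.29 ± 0.67 for Desat1, and -0.96 ± 0.20 and -0.88 ± 0.76 for ACC. For mdy they were -0.66 ± 0.24 and -0.46 ± 0.16, and for Lsd-2 0.75 ± 0.48 and 0.74 ± 0.74. The sides of these genes were the same in both orientations.

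The widest gaps between orientations belonged to bmm and Lsd-1. The lipase gene stood at 0.11 ± 0.15 with larvae in channel 1 and at -0.20 ± 0.13 with adults there (SD, n = 4 each), with overlapping arrays. Lsd-1 stood at 0.72 ± 0.29 and 0.43 ± 0.43. The dye column of the limma fit passed for 0 of the 10 genes and for 0 of all 10609 (0%). At an unadjusted p under 0.05 it passed for 0 of the 10 and 478 of all 10609 genes. With array weights, added after seeing the data, 1175 genes passed after adjustment. Replicate 5 had a weight of 7.92 there and replicate 7 of 0.146, against 0.47 to 1.60 for the others. That fit therefore leaned most on replicate 5.

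By the root mean square difference over the 8 arrays, the genes closest to FASN1 were Peritrophin-15a (0.197), CG17633 (0.198) and yip7 (0.221). Their mean ratios were -2.36 ± 0.62, -2.33 ± 0.65 and -2.39 ± 0.68 (SD, n = 8). Closest to Lsd-2 were Nepl20 (0.102), yip2 (0.107) and CG7675 (0.108), at 0.75 ± 0.54, 0.72 ± 0.61 and 0.83 ± 0.61. All arrays carry the same comparison, so likeness here covers the size of the ratio and the technical pattern of the arrays.

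Markers of whole tissues were read in the same fit, where 29.2% of all genes passed as positive and 27.9% as negative. All 7 measured midgut markers had a negative ratio (median -3.49), the same side as FASN1, Desat1, ACC and mdy. Fat body markers were split: Fbp1 was at 4.30 ± 0.29, Adh at -2.17 ± 0.40 and Apoltp at -0.54 ± 0.20 (SD, n = 8), while Fbp2 at -0.35 ± 0.97 did not pass. Of 5 oenocyte markers, Cyp4g1 (2.36 ± 0.52) and FarO (0.75 ± 0.38) were positive and Desat2 (-0.45 ± 0.29) was negative. Ovary markers had a median of -0.37, and 5 of 7 passed as negative. Testis markers were 5 positive and 2 negative of 7 (1 negative without replicate 3), and flight muscle markers 3 positive and 0 negative of 5. The part of these tissues in the results on lipid genes was not tested. Of larval stage markers 3 of 4 measured were negative. Of 6 adult ones 3 were positive and 1 negative (2 negative without replicate 1). As deposited, the balance of the adult markers turned, to 2 positive and 3 negative, and that of the oenocyte markers to 1 and 3. The negative count was then 7 of 7 for ovary, 3 of 4 for fat body and 4 of 4 for larval markers, while midgut, testis and flight muscle counts were the same. As deposited, 6029 of all 10609 genes passed as negative and 1034 as positive.

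Other lipid genes were read from 9 lists, holding 150 genes of which 123 were measured here. Of these, 25 passed as positive and 42 as negative. That is 20.3% and 34.1%, against 29.2% and 27.9% of all genes, with a median ratio of -0.09 against -0.01 for all genes. As deposited the split was 7 and 81 with a median of -0.53, where all genes had 1034 and 6029 with a median of -0.45. Without replicate 7 the split was 27 and 53, where all genes had 3200 and 3057. The lists were written with earlier results of these data known.

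**Figure D5:**
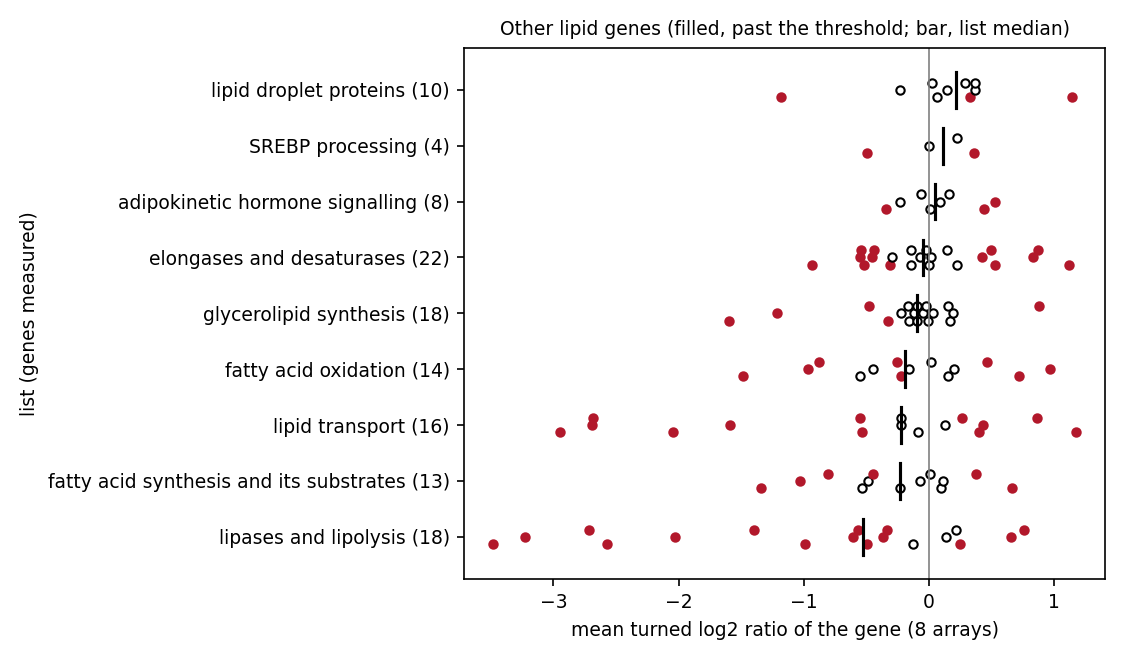
Mean turned log2 ratio (no unit, 8 arrays) of each measured gene in 9 lists of other lipid genes, filled where it passed the threshold, with a bar at each list's median and the number of genes measured in brackets. Lipases have the lowest median, -0.53, and the acyl-CoA binding protein genes of the transport list reach -2.95.

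In the list of fatty acid synthesis and its substrates, which also holds Lipt1 and Ppt1, 30.8% were negative, against 27.9% of all genes. The median of the 13 measured was -0.23, and 4 passed as negative and 2 as positive (as deposited 10 and 0, centred on all spots 7 and 1). The negative count was also 7 without replicate 7, with arrays scaled to one spread, under quantile normalization and with array weights. Of all 10609 genes 3057, 3217, 3215 and 3666 then passed as negative, and 3690 centred on all spots. So the nearness to the background depended on the setting. AcCoAS, the acetyl-CoA synthetase gene, stood at -1.34 ± 0.60, limma adjusted p = 2.15e-05. Pgd, an NADPH-producing enzyme of the pentose phosphate pathway, was at -1.03 ± 0.73, and PCB, pyruvate carboxylase, at -0.81 ± 0.59 (SD, n = 8). ATPCL, the ATP citrate lyase gene that feeds ACC, named outside the rule after its value was seen, was at -0.44 ± 0.57 with an adjusted p of 0.0462.

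Elongases and desaturases went both ways, with 6 positive and 7 negative of 22 and a median of -0.04 (2 and 14 as deposited). That is 27.3% and 31.8%, near the 29.2% and 27.9% of all genes. CG15531 was at 1.13 ± 0.35, the elongase gene sit at -0.94 ± 0.30 and CG17821 at 0.87 ± 0.47 (SD, n = 8). Desat2, the paralog of Desat1, was at -0.45 and passed as negative. The sources used here do not say whether the spots distinguish Desat2 from Desat1.

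Glycerolipid synthesis had 4 negative and 1 positive of 18, with 13 not past the threshold and a median of -0.09 (14 and 1 as deposited, 7 and 1 centred on all spots). These shares, 22.2% and 5.56%, stood against 27.9% and 29.2% of all genes. Agpat4, an acyltransferase of phosphatidic acid synthesis, was at -1.59 ± 0.63 and Gpdh1, which makes glycerol phosphate, at -1.21 ± 0.73. Pect, of phosphatidylethanolamine synthesis, was at 0.88 ± 0.18 (SD, n = 8). Dgat2, which catalyses the same reaction as mdy and is named outside the rule, was at -0.16 ± 0.30 and did not pass (limma adjusted p = 0.215).

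Lipases other than bmm had 12 negative and 3 positive of 18, with a median of -0.53 (13 and 0 as deposited). So 66.7% were negative and 16.7% positive, against 27.9% and 29.2% of all genes. CG6296 and CG6295, of the lipase family, stood at -3.48 ± 0.82 and -3.23 ± 0.66, and mag, a lipase of the gut, at -2.71 ± 0.85 (SD, n = 8), beside the midgut markers on the same side. bmm, at -0.04, lay above these. The sources used here do not say whether spots separate the related genes CG6271, CG6277, CG6283, CG6295 and CG6296.

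Droplet proteins other than the perilipins had 2 positive and 1 negative of 10, with a median of 0.22 (1 and 4 as deposited). At 20% and 10%, both shares lay below the 29.2% and 27.9% of all genes. The positive count was 1 without replicate 3, 6 or 8 and the negative count 2 without replicate 7 or with arrays scaled to one spread. klar, which acts in the transport of droplets, was at 1.15 ± 0.37, and Ldsdh1, a droplet dehydrogenase, at -1.18 ± 0.45 (SD, n = 8). Hsc70-4, at 0.37 ± 0.84, did not pass.

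Adipokinetic hormone signalling had a median of 0.05, with 2 of 8 measured genes positive and 1 negative (0 and 4 as deposited, and 2 negative without replicate 7 or with arrays scaled to one spread). All genes had 29.2% positive and 27.9% negative, against 25% and 12.5% here. Galphas stood at 0.53 ± 0.25, Crtc at 0.44 ± 0.30 and foxo at -0.34 ± 0.29 (SD, n = 8). AkhR, the hormone's receptor, named outside the rule, was at -0.06 ± 0.53 and did not pass (limma adjusted p = 0.755), as its ligand did not. Of the SREBP processing genes, the protease genes S1P (-0.50 ± 0.44) and S2P (0.36 ± 0.18) passed on opposite sides, and SCAP, the escort protein gene, at 0.22 ± 0.29 did not pass. Positive and negative calls were each 25% of the 4 SREBP processing genes measured. These opposite calls depended on centring: of these 4 genes 1 was negative and 0 positive with arrays centred on all spots, and 2 and 0 as deposited.

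Lipid transport had 7 negative and 5 positive of 16, with a median of -0.22 (11 and 2 as deposited, 9 and 3 centred on all spots). Among all genes 27.9% were negative and 29.2% positive, against 43.75% and 31.25% in this list. The acyl-CoA binding protein genes Acbp4, Acbp5 and Acbp3 were at -2.95 ± 0.81, -2.69 ± 0.61 and -2.68 ± 0.75 (SD, n = 8). The sources used here do not say whether their spots distinguish them. Fatty acid oxidation had 5 negative and 3 positive of 14, which is 35.7% and 21.4%, with a median of -0.19 (9 and 1 as deposited). Its negative count was 3 without replicate 3, 4, 5 or 6 and 8 without replicate 7. Had1 was at -1.48 ± 0.66, whd, the carnitine palmitoyltransferase gene, at 0.97 ± 0.39 and the acyl-CoA oxidase gene Acox57D-d at -0.97 ± 0.35.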

How the data were processed

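The authors deposited 1 table of log2 ratios of the 2 channels of each array. Per the labels, RNA was extracted with TRIzol, polyA RNA was selected (GEO's molecule field names total RNA), and an Axon 4000 series scanner with GenePix and the program Spot 2.0 were used. The sources used here do not give dyes, background handling, filters or the numerator channel. The log base was read from the values: 2 whole numbers up to 58096 gave the log2 ratio for 100% of values (relative tolerance 1e-13). No value was missing. Array medians over gene spots ran from -1.02 to 0.81 as deposited.

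The probe table paired 12246 spots with 1 gene, 86 with several and left 7668 unnamed here. RefSeq (Release 6, names only) matched 11873 of the first, and 373 kept the table's symbol. Spots of a gene were averaged. Genes were fitted in R 4.3.3 by limma 3.58.1 (lmFit, eBayes), on stage and dye columns, 6 residual degrees of freedom, Benjamini-Hochberg over 10609 genes at 0.05. Data were simulated with these genes' residual spreads, normal errors independent between arrays, and only a small part of genes shifted. There 55% of genes shifted by 0.5 (log2) and 94% of those shifted by 1 were recovered. In the real data 57.1% of genes passed, so these shares do not give the power of the fit here. Pairs were compared by exact sign-flip tests over arrays (Python 3.11.15, numpy 2.4.6, scipy 1.17.1). Named genes are the 10, the up to 3 with the largest absolute ratio in each list, and the 3 nearest to FASN1 and Lsd-2. Markers and genes called outside the rule are also named. The members and lists were chosen with earlier results of these data known.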

Additional observations from a re-analysis of the deposited data

Results flagged for a closer look

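In 20 groups of 4 arrays (10 genes in 2 orientations), 3 had 1 array far from the other 3 by Dixon's criterion, where chance alone marks about 1 in 20. Lsd-1 on replicate 7 stood at 1.08, while the other arrays with adults in channel 1 lay from 0.19 to 0.23. Replicate 7 is also the array that correlated least with the rest. Akh on replicate 1 stood at 1.31, above the other arrays with larvae in channel 1, which lay from -0.53 to -0.29. The bmm gene on replicate 2 stood at 0.0030, above the other arrays with adults in channel 1, which lay from -0.29 to -0.24. No cause was tested.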

How the results depend on the processing

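FASN1, ACC, Desat1 and mdy kept their side and passed under all 17 alternatives run, with FASN1 from -2.89 to -2.36, Desat1 from -1.63 to -1.08 and ACC from -1.36 to -0.68. Lsd-1 and Lsd-2 passed under 16 of 17, and not as deposited. As deposited, 0 of the 10 genes passed as positive and 7 as negative. Of other lipid genes 7 passed as positive and 81 as negative, and of all genes 1034 and 6029. Centred on all spots, 2049 of all genes passed as positive. FASN2 passed under 10 of 17 alternatives, SREBP under 7, bmm under 1 and Akh under 0. Akh changed side with arrays scaled to one spread (0.14), under quantile normalization (0.11) and with array weights (0.0050), and ran from -0.26 to 0.050 with 1 array left out. Of the 5 pair differences, 4 kept side and call under all 15 alternatives run, and Lsd-1 minus Lsd-2 passed at -0.48 with the spot of smallest residual SD. The dye column called 1175 genes with array weights, an alternative added after seeing the data. The causes were not tested. Pair differences were not run without the dye column or with array weights, which leave the array values as they are. Precision is limited by there being 8 arrays, and signal over background was not examined.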
